A study of Sus scrofa with 4 samples.

Results

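The ubiquitin enzymes and deubiquitinases described here are the 102 probe sets, of 15383 in the deposited GCRMA table, whose array design text contains the word ubiquitin. A probe set is a group of short probes that reads 1 stretch of a transcript, and a gene can have more than 1. The word was found in 103 probe sets, none of which named the proteasome or a ribosomal protein. USP18 was left out by the selection rule, with 1 probe set. By the wording of the same text, 29 members were classed as conjugating enzymes, 7 as ligases, 42 as specific proteases and 24 as other. They name 69 genes, 26 of which have 2 or more probe sets, and 1 member, described only as similar to a ubiquitin binding protein, names none. The text places 87 of the members as highly similar to a named protein, mostly of human, rat or mouse, 6 as moderately similar, 1 as weakly similar and 8 as pig genes, so the genes named below are those of the most similar protein.

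The arrays carried liver RNA of 4 Chinese miniature pigs at 4 months of age, 1 Affymetrix porcine array per pig. The 2 control pigs, 1 male and 1 female, ate a diet without clenbuterol. The 2 treated pigs, also 1 male and 1 female, ate the diet with clenbuterol, a β2-adrenergic agonist, for 8 weeks from 8 weeks of age, when pigs weighed 18 kg on average. The feed held 25 mg/kg, offered 2 times a day, in the first 4 weeks and 50 mg/kg in the last 4. The design text speaks of full sibs of the same sex in each group, which does not settle whether sibs were split between the diets or shared one. If they shared one, family and treatment cannot be told apart. The median over the tested probe sets lay between 7.46 and 7.50 (log2 GCRMA) on the 4 arrays.

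Ubiquitin is a small protein that cells attach to other proteins. An activating enzyme (E1) charges it, a conjugating enzyme (E2) carries it and a ligase (E3) passes it to the substrate, while deubiquitinases such as the ubiquitin-specific proteases (USPs) take it off again. Chains joined through different lysines of ubiquitin send substrates to the proteasome or serve signalling and DNA repair. In liver, as in other tissues, this system removes damaged and short-lived proteins, including those returned from the endoplasmic reticulum. The roles given below are those known for the human and mouse proteins.

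The comparison asks which transcripts of this system differed in liver after 8 weeks of clenbuterol. Of the members, the conjugating enzymes UBE2V1, UBE2E3 and UBE2A and the proteases USP25, USP1 and USP7 each had a probe set that was higher in the treated pigs. The ubiquitin-like modifier UBD, the protease USP48 and the ligases UBE3A and TRIAD3 each had one that was lower, with the exception, for UBE3A and TRIAD3, of 1 scaling described below. These 10 differed by 0.36 to 1.33 in absolute log2 units, with UBE2V1 at the upper end. Most other members differed little: the median absolute difference was 0.15 (log2) over the members tested and 0.24 over all probe sets tested.

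The test was limma's moderated test on the deposited log2 GCRMA values, with Benjamini-Hochberg adjustment over the 11931 probe sets that reached a value of 4 on at least 2 of the 4 arrays. Of the members, 90 were tested, and 89 of them reached 4 on every array. At an adjusted p of 0.05, 11 of the 90 passed (12.2%), where 23.8% of all tested probe sets did. Higher were 7 members, where 11.4% of all tested probe sets were higher, and lower were 4, where 12.4% were. The values of the 2 groups did not overlap in 56 of the 90 members (62.2%), against 68.1% of all tested probe sets. A difference of at least 1.5-fold was measured in 7 members, or 7.78%, against 18.0% of all tested probe sets, with a median SD within the 2 control arrays of 0.08 in both sets. An unadjusted p below 0.05 by limma was found for 23 of the 90 members, and for 4693 of the 11931 tested probe sets.

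The split by direction depended on the scaling. In the series value table, a second deposited table of linear intensities, 3 members were higher and 2 lower by limma. These are 5.56% of the members tested, where 11.1% of all tested probe sets passed in those values. After scaling these intensities to the hybridisation spikes, control transcripts added to each sample, 20 members were higher and 0 lower, and at an unadjusted p below 0.05 they were 35 and 0. The 20 are 22.2% of the members tested, where 29.5% of all tested probe sets passed in that scaling. That scaling adds 0.39 (log2) to every difference, which moved the median difference of all tested probe sets from −0.03 to 0.37 (log2), and the members' median to 0.37 as well. With 2 arrays per group, 5 or 4 members passed by limma when 1 of the control arrays was left out and 0 when either treated array was left out, with 16 and 17 at an unadjusted p below 0.05 and the lowest adjusted p at 0.0549 and 0.053.

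**Figure D1:**
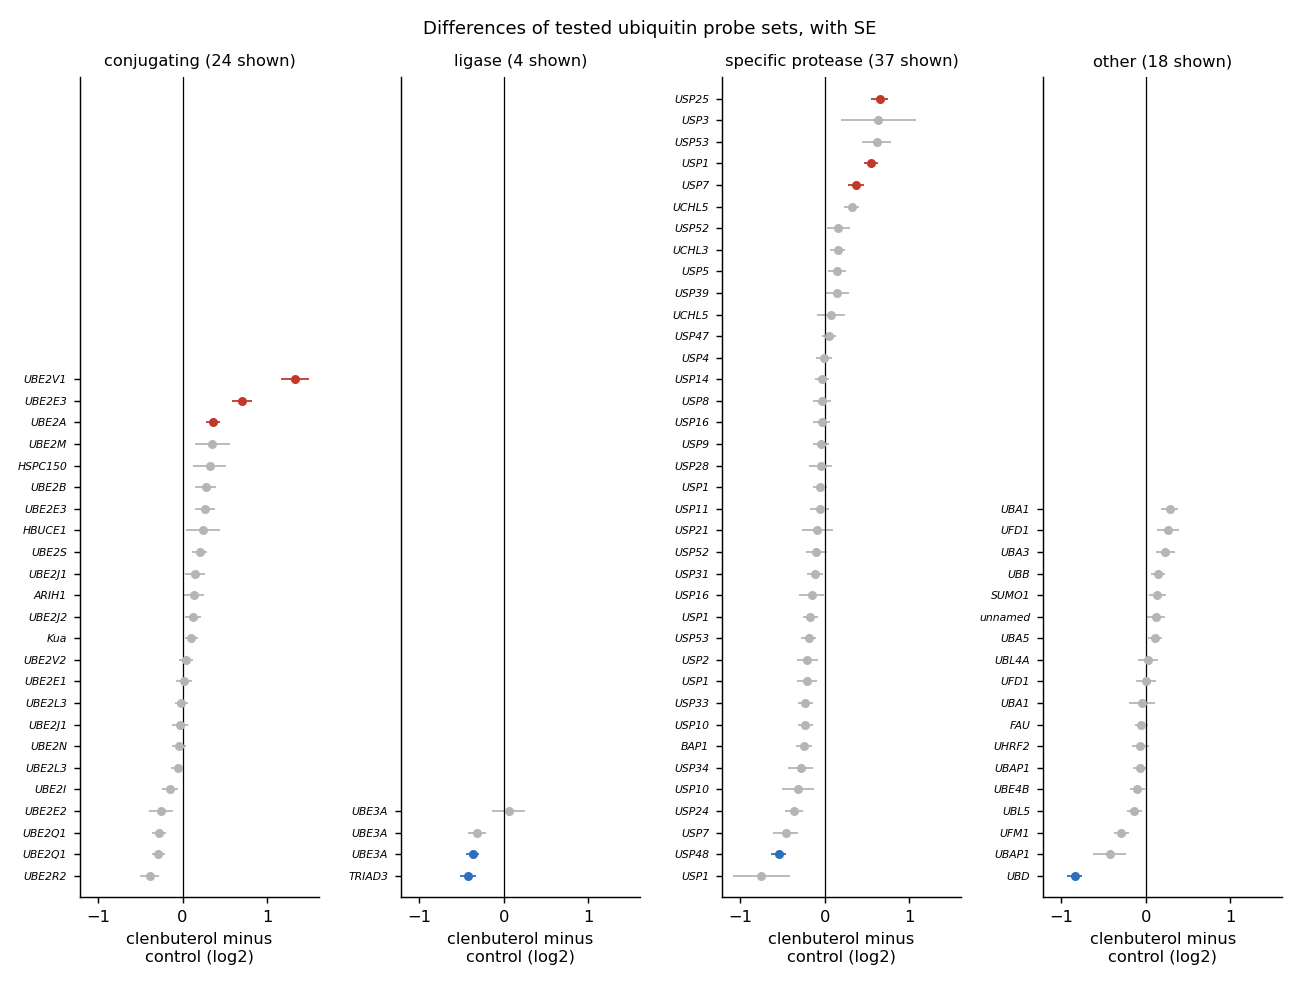
Difference between clenbuterol and control (log2 GCRMA, horizontal axis) with its SE from limma for 83 of the 90 tested ubiquitin probe sets, in 4 panels by class and named by gene. Red points passed the threshold upward, blue points downward and grey points did not pass. The 3 conjugating probe sets shown that passed lie to the right of 0 and both ligase probe sets to the left.

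Among the 27 tested probe sets classed as conjugating enzymes, 4 passed (14.8%, where 23.8% of all tested probe sets did), all of them higher. The class goes by wording and includes a probe set described as an E2 binding protein. Its median difference was 0.10 (log2), against −0.01 in the series values. UBE2V1, a catalytically inactive E2 variant that pairs with UBE2N to build chains joined through lysine 63, had the largest difference of all members. Its probe set Ssc.19134.1.S1_at read 5.79 and 6.14 (log2 GCRMA) on the control arrays and 7.17 and 7.42 on the treated arrays. Both treated arrays lay above both control arrays by more than the gap within either group, at 2.51-fold higher (1.33 ± 0.16, log2 difference ± SE; limma adjusted p = 0.0124). The other UBE2V1 probe set, Ssc.19134.2.S1_at, lay between 3.86 and 3.88 on all 4 arrays, below the filter, and was not tested. In the series values that probe set was lower, by 1.21 (log2 intensity) between the males and 0.41 between the females, opposite to the called one, so UBE2V1 has no single direction in that table. The partner UBE2N differed by −0.04 ± 0.08 and the related variant UBE2V2 by 0.04 ± 0.09, and neither passed.

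UBE2E3, an E2 of the family that includes UBE2E1 and UBE2E2, read 5.47 and 5.21 without clenbuterol, against 6.07 and 6.00 with it, on probe set Ssc.11673.2.S1_at. The groups did not overlap, and the difference was 0.70 ± 0.12 (1.62-fold; limma adjusted p = 0.0235). A second UBE2E3 probe set, Ssc.11673.1.S1_at, read 7.96 and 8.18 against 8.25 and 8.43, a difference of 0.27 ± 0.12 that did not pass (adjusted p = 0.191). UBE2E1 and UBE2E2, with 1 probe set each, differed by 0.02 ± 0.10 and −0.26 ± 0.14 and did not pass.

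UBE2A, one of the RAD6 enzymes that attach ubiquitin to histone H2B and to the replication clamp PCNA, read 7.53 and 7.45 against 7.87 and 7.83, a difference of 0.36 ± 0.08 (1.28-fold; limma adjusted p = 0.0438). Its close relative UBE2B read 11.11 and 11.28 against 11.35 and 11.58, higher on both treated arrays but not past the threshold (0.27 ± 0.12; adjusted p = 0.179). The largest downward differences of the class did not pass either. UBE2R2, an E2 that works with cullin ligases, lay at −0.39 ± 0.11 (adjusted p = 0.0723), and the 2 probe sets of UBE2Q1 lay at −0.29 and −0.28.

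**Figure D2:**
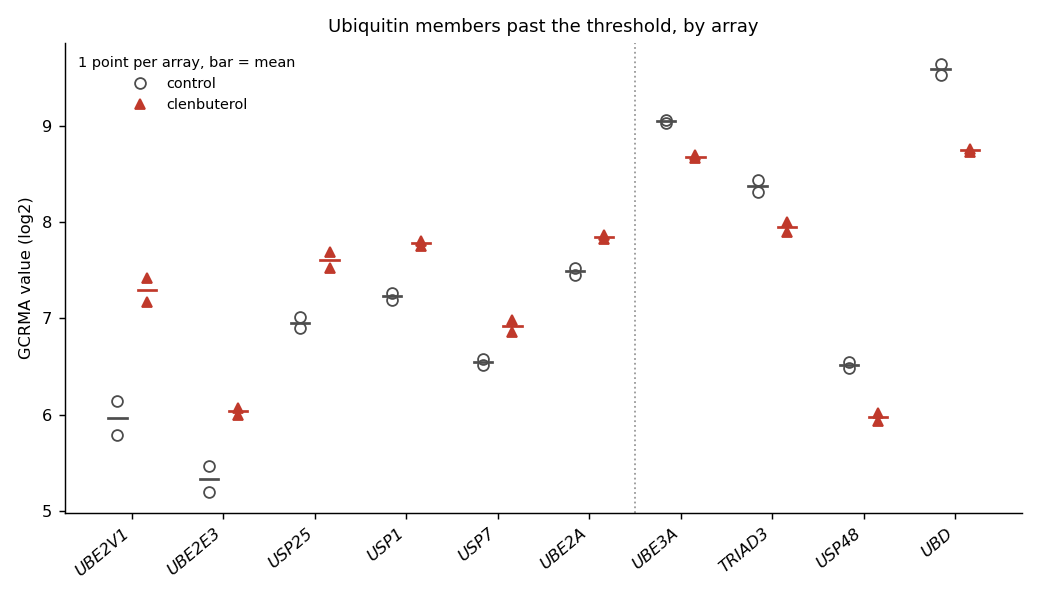
GCRMA value (log2, vertical axis) of 10 ubiquitin probe sets that passed the threshold on each of the 4 arrays, named by gene and ordered by difference. Open circles are the 2 control arrays, red triangles the 2 treated arrays and short bars the group means, and values are comparable within a gene only. The 6 left of the dotted line were higher and the 4 right of it lower with clenbuterol in the GCRMA values, and in none of the 10 do the groups overlap.

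Of the 7 ligase probe sets 4 were tested, 1 for TRIAD3 and 3 for UBE3A. In the GCRMA values 2 passed (50.0%, where 23.8% of all tested probe sets did), and in the series values 0. TRIAD3, an E3 known for ubiquitinating signalling proteins of the innate immune response, is named from a text of moderate similarity to a rat protein. It read 8.31 and 8.43 on the control arrays, with 7.90 and 8.00 after clenbuterol. The groups were separate by more than the spread within them, and the difference was −0.42 ± 0.09 (1.34-fold lower; limma adjusted p = 0.0413), but 0.01 after scaling to the spikes (adjusted p = 0.959).

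UBE3A, the founding HECT-domain ligase and the gene of Angelman syndrome, read 9.06 and 9.03 against 8.66 and 8.69 on Ssc.19353.3.A1_at. This was −0.37 ± 0.08 (1.29-fold lower; limma adjusted p = 0.0377) and 0.02 after scaling to the spikes (adjusted p = 0.933). A second probe set, Ssc.19353.2.S1_at, read 10.08 and 10.23 against 9.75 and 9.93, lower on both treated arrays without passing (−0.31 ± 0.11; adjusted p = 0.112). On the third, Ssc.19353.1.S1_at, the groups overlapped, at 6.84 and 6.78 against 6.60 and 7.14. The 3 probe sets not tested, 2 for UBE3B and 1 for WWP2, both HECT ligases, read below 4 on every array.

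Of the 37 tested specific proteases, 4 passed (10.8%, where 23.8% of all tested probe sets did), 3 higher and 1 lower. The median difference was −0.05 (log2). USP25, a deubiquitinase with roles in immune signalling and protein quality control, read 7.02 and 6.90 in control pigs, rising to 7.52 and 7.69 with clenbuterol. The gap between the groups exceeded the spread within them, at 0.65 ± 0.10 (1.57-fold; limma adjusted p = 0.0206). USP48, which acts on histone H2A and other nuclear substrates, was the lower one, at 6.55 and 6.49 against 5.93 and 6.02 (−0.54 ± 0.09; 1.46-fold lower; limma adjusted p = 0.0196). It kept that direction after scaling to the spikes, at −0.10, but without passing (limma adjusted p = 0.714). In the series values it did not pass either (limma adjusted p = 0.0638).

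USP1 removes ubiquitin from PCNA and FANCD2 in DNA repair, and 5 of its probe sets were tested. On Ssc.6338.2.S1_at it read 7.19 and 7.26 against 7.75 and 7.80, and this probe set passed (0.55 ± 0.08; 1.46-fold; limma adjusted p = 0.0179). The other 4 lay below 0 in the GCRMA values, at −0.75, −0.21, −0.17 and −0.05, and did not pass. The probe set at −0.75, Ssc.7866.1.A1_a_at, read 6.97 and 7.89 on the control arrays and 6.50 and 6.87 on the treated arrays, so its control arrays were further apart than the 2 groups' nearest values. Without the control array at 6.97 it passed by limma, at −1.20 (adjusted p = 0.0452). No single direction therefore holds for USP1.

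USP7, which stabilises MDM2 and p53 among other substrates, had 2 probe sets with differences of opposite sign. Ssc.13093.1.S1_at read 6.52 and 6.58 against 6.86 and 6.98 and passed (0.37 ± 0.09; 1.29-fold; limma adjusted p = 0.0487). Ssc.11144.1.A1_at read 9.94 and 10.18 against 9.46 and 9.73 and did not (−0.46 ± 0.14; adjusted p = 0.0844). In both the groups were separate, so the GCRMA values give no single direction for USP7 either, whereas both probe sets were above 0 in the spike-scaled intensities, at 0.71 (adjusted p = 0.024) and 0.08 (adjusted p = 0.735). The first of them also failed the threshold without the filter on dim probe sets.

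Other proteases with high values on these arrays did not pass. USP14, a deubiquitinase bound to the proteasome, read 9.90 and 9.86 against 9.89 and 9.81. USP10 read 9.92 and 10.02 against 9.73 and 9.76 on Ssc.21937.1.S1_at (−0.23 ± 0.08; adjusted p = 0.124). Its second probe set read 5.70 and 6.04 against 5.36 and 5.75, with overlapping groups, and was at −0.32 in the GCRMA values but at 0.59 in the spike-scaled intensities (adjusted p = 0.0367). UCHL5, another proteasome-bound deubiquitinase, read higher on both treated arrays on Ssc.8201.1.S1_at without passing (0.32 ± 0.09; adjusted p = 0.0691). The 5 members of this class that were not tested are 1 probe set each of USP16, USP3, USP33, USP4 and USP9.

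The remaining class holds ubiquitin itself, activating enzymes and ubiquitin-like proteins. Of its 22 tested probe sets, 1 passed (4.55%, where 23.8% of all tested probe sets did). This was UBD, also called FAT10, a modifier made of 2 ubiquitin-like domains that targets proteins to the proteasome and that interferon-γ and tumour necrosis factor are known to induce. It read 9.64 and 9.53 in control pigs, falling to 8.76 and 8.73 with clenbuterol. The groups were far apart relative to their spread, at −0.84 ± 0.09 (1.79-fold lower; limma adjusted p = 0.00919), the smallest adjusted p of all members. It passed in 6 of the 7 alternatives that kept all arrays and, in the spike-scaled intensities, was at −0.36 without passing (adjusted p = 0.179).

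Ubiquitin B and the activating enzyme did not pass. UBB, which encodes ubiquitin, read 14.41 and 14.47 against 14.55 and 14.63 (0.15 ± 0.08; adjusted p = 0.262). FAU, a ubiquitin-like protein fused to a ribosomal protein, read 13.25 on both control arrays and 13.21 and 13.19 on the treated arrays (−0.05 ± 0.08; adjusted p = 0.678). The activating enzyme UBA1 had probe sets at 0.28 ± 0.10 (adjusted p = 0.118) and −0.05 ± 0.16. None of these passed.

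The GCRMA columns carry no sex, so pairs of 1 sex were compared in the series values, where each pair is 1 treated minus 1 control pig and no test is possible. All 11 called members lay in the direction of the call in both pairs. The calls and the pairs come from the same arrays, so this is no independent support. Between the male pigs the called UBE2V1 probe set differed by 1.21 (log2 intensity) and between the females by 0.57. Its other probe set, not tested, was at −1.21 and −0.41. In the same order UBD differed by −0.82 and −0.70 and USP25 by 0.61 and 0.59. UBE2E3 differed less there than in the GCRMA values, by 0.14 and 0.24. Over the 90 tested members, both pairs were above 0 in 29, both below 0 in 35 and of opposite sign in 26, which makes 71.1% of the members of 1 sign, against 74.5% of all tested probe sets. By limma on the series values, 3 of the 11 passed again, among them UBD (adjusted p = 0.0295) and USP25 (adjusted p = 0.0363), where 39.3% of all called probe sets passed again. Besides them, USP2 and 1 probe set of USP53 passed in these values. USP2 was lower by 0.47 and 1.02 in the pairs (adjusted p = 0.049), at −0.20 ± 0.12 in the GCRMA values. USP53 was at 0.63 and 0.46 (adjusted p = 0.0494), and at 0.62 ± 0.17 in the GCRMA values (adjusted p = 0.067).

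**Figure D3:**
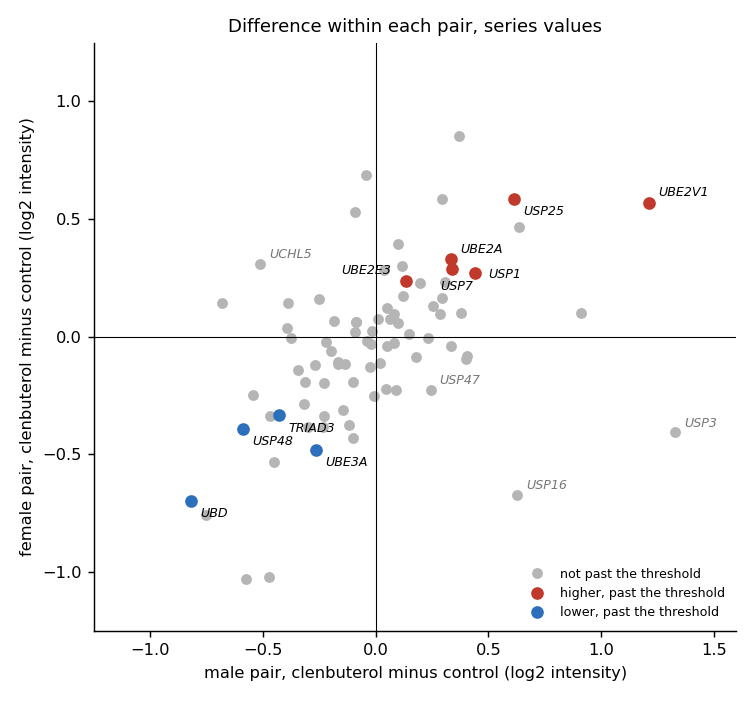
Difference between clenbuterol and control for the males (horizontal axis) and for the females (vertical axis), both in log2 intensity of the series values, for 83 of the 90 tested ubiquitin probe sets. Red and blue points passed the threshold in the GCRMA values, upward and downward, and grey points did not. The 10 called probe sets lie toward the upper right or the lower left corner, and the 4 points with grey names have differences of at least 0.2 in opposite directions.

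The authors' deposited table gives a limma p below 0.05 for 10 of the 102 members, and its flag for a choice by limma and SAM together is set for 1 of them, UBE2V1, at a signed fold of 2.51 and a p of 0.0259. Those values come from the same arrays and are no independent support. The matching shares of all probe sets were not counted here, so no background stands beside these counts.

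Several probe sets of a gene offer a check within the arrays. Of 15 genes with 2 or more tested probe sets, 8 had all of them on 1 side of 0 in the GCRMA values. At least 1 probe set passed for 4 of these genes, UBE2E3, UBE3A, USP1 and USP7, and for 0 of them did 2 pass by limma. The probe sets of a gene lay at least 1.5-fold apart in 3 genes, by 1.30 (log2) in USP1, 0.83 in USP7 and 0.81 in USP53, and by only 0.01 in UBE2Q1. Probe sets of a gene can read different transcript ends or forms, which were not analysed here.

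**Figure D4:**
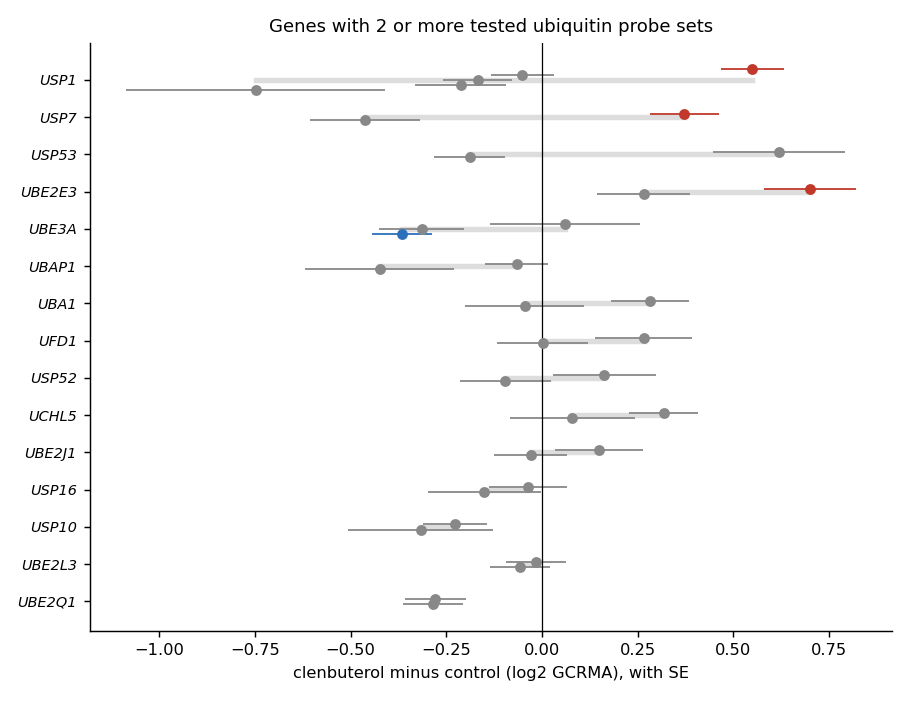
Difference between clenbuterol and control (log2 GCRMA, horizontal axis) with its SE for each probe set of 15 genes with 2 or more tested ubiquitin probe sets, 1 gene per line and a grey band over its range. Red and blue points passed the threshold upward and downward. USP1 has the widest range, from −0.75 to 0.55, and both UBE2Q1 probe sets lie together at −0.29 and −0.28.

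Other genes of the pathway were taken by the same array text, none of them a member. The proteasome, the protease that degrades ubiquitinated proteins, had 15 of 48 tested probe sets higher and 0 lower by limma. That is 31.2%, where 23.8% of all tested probe sets passed in either direction. At an unadjusted p below 0.05, 22 were higher and 3 lower. The median difference was 0.25 (log2), against −0.03 for the ubiquitin members and −0.03 for all tested probe sets. In the series values 6 were higher and 0 lower, or 12.5%, where 11.1% of all tested probe sets passed. The unadjusted counts there were 15 and 4. The regulatory subunit PSMD11 read 7.81 and 7.80 against 8.70 and 8.70 (0.89 ± 0.08; adjusted p = 0.00661). The core subunits PSMA5 and PSMA2 rose by 1.13 and 0.78, and LMP7, a catalytic subunit of the immunoproteasome, by 0.75.

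Among the 44 tested RING finger and TRIM proteins, many of them ligases, 4 were higher and 7 lower, and in the spike-scaled intensities 10 and 0. These are 25.0% and 22.7% of the 44, where 23.8% and 29.5% of all tested probe sets passed. ZNRF3, a ligase that removes Wnt receptors from the cell surface, read 9.04 and 9.10 against 8.02 and 7.93 (−1.10 ± 0.08; limma adjusted p = 0.0058). RNF121 and RNF149 were higher, by 0.84 and 0.64. RNF135 was lower by 0.66 in the GCRMA values, though it differed by only −0.11 and −0.12 in the pairs of the series values and was at 0.28 after scaling to the spikes. The 58 tested cullin partners held 3 higher and 4 lower (10 and 1 in the spike-scaled intensities). These are 12.1% and 19.0% of the 58, where 23.8% and 29.5% of all tested probe sets passed. WSB1, a substrate receptor of a cullin ligase, was at −0.72 and COP9 subunit 5, which removes NEDD8 from cullins, at 0.58. Kelch proteins were among the lower ones, Nd1-L at −1.11 and kelch-like 2 at −0.67.

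Of 9 tested probe sets for ubiquitin-like modifiers and their enzymes, 2 were higher and 0 lower (22.2%, against 23.8% of all tested probe sets). Both were for SENP6, a protease that trims SUMO chains, at 0.59 and 0.54 (limma adjusted p = 0.0359 and 0.0467). At an unadjusted p below 0.05 the counts were also 2 and 0. Neither called SENP6 probe set passed without the filter or in the series values. The lowest probe set of this list, at −0.28, did not pass. Its identifier shares its first number with that of the SENP6 probe set at 0.54. Whether it also reads SENP6 was not tested, so no single direction is given for SENP6. Of 6 partners of the degradation of endoplasmic reticulum proteins (ERAD), 1 was higher and 1 lower, and 2 and 0 in the spike-scaled intensities. Either count is 33.3% of the 6, where 23.8% and 29.5% of all tested probe sets passed. Synoviolin, the ERAD ligase, read 9.95 and 9.98 against 9.17 and 9.20 (−0.78 ± 0.08; limma adjusted p = 0.00864). The deubiquitinase p135, which binds the VCP/p47 complex, was at 0.63 ± 0.11 (adjusted p = 0.0229), from control values of 3.79 and 3.82 that lay under the filter of 4.

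**Figure D5:**
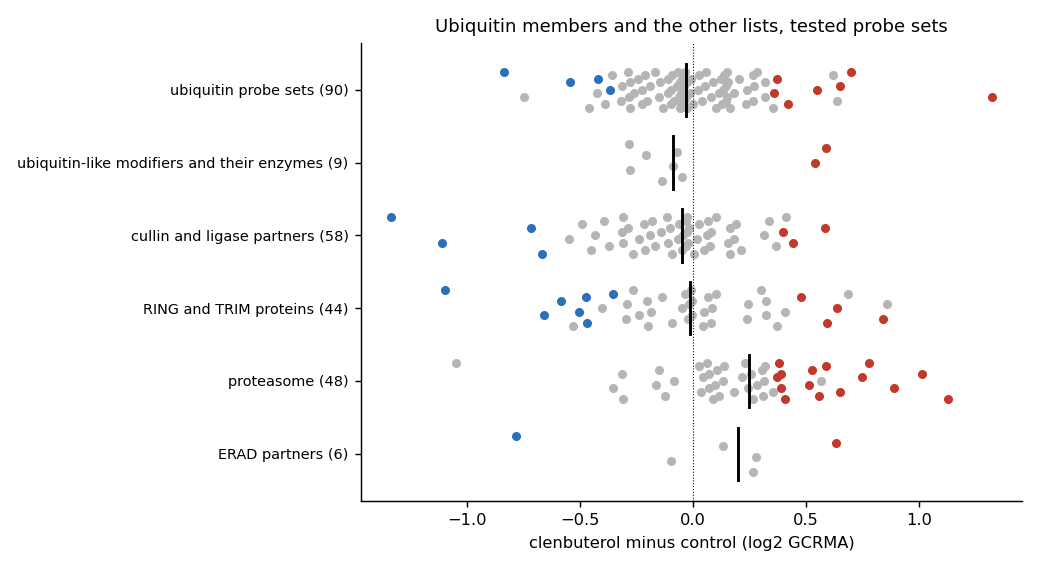
Difference between clenbuterol and control (log2 GCRMA, horizontal axis) of each tested probe set of the ubiquitin members and of the other lists, with the number tested in brackets and a black bar at the median. Red and blue points passed the threshold upward and downward, and the vertical scatter within a line carries no value. The called proteasome probe sets all lie to the right of 0, and the medians of the ubiquitin members and of the cullin and RING lists lie near 0.

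These are whole-liver samples, in which fewer cells of a type and less RNA per cell cannot be told apart. Hepatocyte markers (ALB, APOA1, APOB, ARG1, SERPINA1, TF and TTR) all passed the filter: 0 of 7 genes passed by limma, 0 had an unadjusted p below 0.05, and their summed level was 182000 to 183000 without and 180000 to 181000 with clenbuterol (linear GCRMA scale). Of the markers listed, 7 of 12 were found on the array for hepatocytes and 5 of 9 for Kupffer cells and macrophages. For T and NK cells these were 3 of 7, for stellate cells and fibroblasts 6 of 8 and for endothelium 5 of 6. For cholangiocytes they were 3 of 6 and for neutrophils 1 of 5. Several markers of other cells passed, where 23.8% of all tested probe sets did. Kupffer cell and macrophage genes summed to 6880 to 7040 against 8470 to 9070, with 2 of 4 higher and LYZ below the filter, and stellate cell and fibroblast genes to 5750 to 5760 against 7930 to 8220, with 4 of 6 higher and 1 lower. T and NK cell genes summed to 233 to 289 against 396 to 405 (1 of 3 higher), endothelial genes to 1100 to 1140 against 1180 to 1300 (2 of 5 higher, 1 lower) and cholangiocyte genes to 333 to 336 against 249 to 254 (2 of 3 lower, CLDN4 and GGT1, both above 0 in the spike-scaled intensities). The neutrophil peptide NPG4, the 1 neutrophil marker tested, read 4.26 to 4.56 in control and 22.8 to 33.7 in treated pigs, so its control values lay below the filter and it was tested only through the treated arrays. B cell and erythroid markers were not analysed here. The gap between 3′ and 5′ probe sets of the array's control transcripts was smaller on both treated arrays than on both control arrays in 7 of 11 pairs and larger in 0. Those 7 pairs had mean intensities of 6.99 to 14.82 (log2), and the remaining pairs were dimmer, at 2.67 to 6.61. The part of these shifts in the ubiquitin differences was not tested.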

How the data were processed

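Per the submitters' processing notes, the authors made the log2 values with GCRMA, a method that corrects background, equalises arrays and summarises each probe set; the columns name no replicate. The deposited series value table holds a linear intensity for 24123 probe sets by replicate. How it was made is not stated in these sources, and log2 was taken with a floor of 1. Per the file headers, the authors also deposited a limma p-value, a SAM q-value and a fold, read here as a score.

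Members were found and classed by array text, and members and lists were chosen with earlier results of these data known. Only probe sets reaching 4 (log2 GCRMA) on 2 or more of 4 arrays were tested (11931), by limma 3.58.1 (lmFit and eBayes, R 4.3.3) with group as the only term and a Benjamini-Hochberg limit of 0.05 over all of them. Fits were tested on simulated data. The number of arrays limits the precision. Named are the called members, the 3 brightest of each class, every probe set of these genes and up to 4 called probe sets with the smallest adjusted p per other list. Members named outside this rule (UBE2N, UBE2V2, UBE2E1, UBE2E2, UBE2R2, UBE2Q1, UCHL5, UBA1, USP2, USP53 and those with pairs of opposite sign) were chosen after their values were seen. So were the uncalled probe sets named from the other lists. Alternatives were 2 other filters, the series values, 2 scalings of them, a replicate block, eBayes with a trend and robust, and leaving out each array. Deposited symbols named no member, since some disagreed with the array text, such as FAU for USP1. A few members, 1 of them called, are counted but not reported here.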

Additional observations from a re-analysis of the deposited data

Results flagged for a closer look

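For 4 tested ubiquitin probe sets the male and the female pair of the series values lay at least 0.2 (log2 intensity) from 0 in opposite directions, a limit set after the data were seen. The difference between the pairs, each of 1 control and 1 treated pig, was not tested. USP3, on Ssc.27243.1.S1_at, was at 1.33 in the males and −0.41 in the females, with GCRMA values of 3.36 and 4.64 in the control pigs, the former below the filter. USP16, on Ssc.27446.1.S1_a_at, was at 0.63 and −0.67. UCHL5, on Ssc.8201.2.A1_at, was at −0.51 and 0.31. USP47 was at 0.24 and −0.22. None of the 4 passed the threshold in the GCRMA values, their adjusted p by limma lying between 0.347 and 0.757. Another probe set of USP16, Ssc.26871.1.S1_at, was at 0.20 and 0.23, and another of UCHL5, Ssc.8201.1.S1_at, at 0.18 and −0.09.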

How the results depend on the processing

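Of the 11 ubiquitin probe sets past the threshold (7 higher, 4 lower), 9 kept their direction in all 11 alternatives. TRIAD3 at 0.013 and UBE3A at 0.022 changed sign after scaling to the spikes, as did the uncalled second probe set of USP10 at 0.59, whose pairs were above 0 before that scaling too. For TRIAD3 and UBE3A the change follows from the 0.39 (log2) that the scaling adds to every difference. The total was 9 without the filter, 15 (8 higher, 7 lower) with the stricter filter of 6 and 15 (7 and 8) with the trend and robust eBayes. It was 5 (3 and 2) in the series values, 3 (2 and 1) after quantile normalization, 20 (20 and 0) after scaling to the spikes and 3 (1 and 2) with a replicate block, where USP25 missed the threshold (adjusted p = 0.0534) and USP1 on Ssc.7866.1.A1_a_at passed at −0.76 (adjusted p = 0.0407 by limma). Same-numbered arrays of the 2 groups deviated together with r = 0.18 over probe sets, with only 2 pairs. Without 1 array, 0 to 5 passed, 0 to 3 higher and 0 to 2 lower, an arm of 1 array being assumed to vary like the other. At an unadjusted p below 0.05 there were 16 or 17 in each of these fits. Over all tested probe sets 23.8% passed, 15.3% without the filter, 32.7% with the stricter filter, 27.9% with the trend, 11.1% in the series values, 10.9% after quantile normalization, 29.5% after scaling to the spikes, 8.83% with the block and 4.85% to 10.2% without 1 array.

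In the order series values, quantile, spikes, the counts past the threshold were 0, 0 and 1 for the ubiquitin-like list (also 0 without the filter), 4, 4 and 11 for cullin partners, 3, 2 and 10 for RING and TRIM proteins, 6, 6 and 26 for the proteasome, and 0, 0 and 2 for ERAD partners. The last 2 scalings of these lists were added after seeing the data. Where 0 passed by limma, at most 2 had an unadjusted p below 0.05.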
